A study of Mus musculus and Rattus norvegicus with 36 samples.

Results

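The livers of mice fed a Se-deficient diet were compared with those of mice fed a Se-adequate diet. The members are 6 of the 36 arrays of the series, taken by their labels, 3 titled as Se-deficient mouse liver and 3 as mouse liver at 0.2 μg Se/g diet. The study as a whole followed the transcriptome of mouse liver and kidney and of rat liver as dietary selenium (Se) went from deficient to toxic. All 6 mice were weanling males of a wild-type colony with a mainly C57 black background, kept 1 to a cage for 35 days on the same torula-yeast basal diet, which carried added vitamin E and methionine. The Se-deficient mice received this diet without added Se, and the Se-adequate mice received it with 0.2 μg Se/g as sodium selenite. A further 3 mice at 0.05 μg Se/g shared the estimate of the spread and are given beside the 2 groups, without a test. Each liver was perfused in situ with potassium chloride before it was frozen, and RNA from 1 mouse went onto 1 whole-genome Affymetrix mouse array. The basal diet with its added vitamin E and methionine was common to all groups, so the comparison is of Se deficiency on that diet and not of Se and vitamin E deficiency together.

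Selenium acts in mammals as selenocysteine, an amino acid placed into a small family of selenoproteins at a UGA codon that is otherwise a stop signal. When Se runs short, the transcripts of some selenoproteins are degraded and those of others are kept, and in liver Gpx1 is the best known of the sensitive ones. Nrf2 (gene Nfe2l2) is a transcription factor held low by Keap1 that, once released by oxidants or electrophiles, binds antioxidant response elements and raises enzymes of conjugation, reduction and export. Bulk tissue was measured, so a lower level per liver cell and fewer cells that hold a transcript cannot be told apart.

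The deposited values are log2 expression levels per probe set, and each difference is Se-deficient minus Se-adequate on the log2 scale with its standard error (SE) from limma. A probe set was called changed at a Benjamini-Hochberg adjusted p under 0.05 over all 45037 probe sets, and 10 were called, which is 0.0222% of those tested. The 3 called higher (0.00666%) belonged to Cbr3, Abcc4 and Hspb1, and the 7 called lower (0.0155%) belonged to 5 selenoproteins, Selenow, Selenoh, Gpx1, Selenok and Txnrd2. At an unadjusted p under 0.05 lay 1075 probe sets with a higher mean (2.39%) and 1008 with a lower one (2.24%). The groups did not overlap in 3427 probe sets (7.61%), 1556 with all Se-deficient livers above (3.45%) and 1871 with all below (4.15%). Beyond 2-fold lay 18 (0.0400%), and the median difference over all probe sets was −0.02. With 1 probe set for each of 18193 genes, 8177 means were higher in Se deficiency and 10016 were lower. With 3 livers against 3, an exact permutation test of a single transcript cannot go below 0.1.

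The arrays of the 2 groups were alike. Correlations across probe sets ran from 0.993 to 0.997 within the groups and from 0.990 to 0.997 between them. Se-deficient livers 2 and 3 and Se-adequate liver 1 each correlated slightly more, on average, with the other group than with their own (0.9956 against 0.9949, 0.9963 against 0.9950, and 0.9955 against 0.9948). Array medians lay between 6.17 and 6.27. The difference between the 3′ and the 5′ control probe sets of Gapdh, a sign of RNA quality, was 0.14 to 0.17 in the Se-deficient and 0.19 to 0.22 in the Se-adequate livers without overlap, and its part in the results was not tested. Hepatocyte markers had a summed level, the log2 of their added linear levels, of 17.15 to 17.21 against 17.18 to 17.20 over 11 genes, none of which had an unadjusted p under 0.05.

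Cbr3 and Abcc4, which rose, are taught as Nrf2 targets, as are Abcc2, Ugdh and Txnrd1, and the stretch before their annotated starts is shown. Abcc2, Ugdh and Txnrd1 all hold a match to the motif marked below, so the stretches shown do not stand for the targets as a set. Each line gives the 150 bases before the start of the gene in GRCm38.p6 from RefSeq, read 5′ to 3′ along the gene. Capitals mark a match to TGACNNNGC, the core of the antioxidant response element, on either strand, and N is any base. A start within the annotated Abcc4 gene is shown beside its distal one. For Txnrd1 the start whose window holds a match is shown, and the windows of its other starts hold none.
Cbr3, chr16:93683069-93683218, plus strand: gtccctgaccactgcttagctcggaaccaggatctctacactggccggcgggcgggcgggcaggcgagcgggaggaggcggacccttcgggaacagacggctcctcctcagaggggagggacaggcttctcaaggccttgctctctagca
Abcc4, distal start, chr14:118706220-118706369, minus strand: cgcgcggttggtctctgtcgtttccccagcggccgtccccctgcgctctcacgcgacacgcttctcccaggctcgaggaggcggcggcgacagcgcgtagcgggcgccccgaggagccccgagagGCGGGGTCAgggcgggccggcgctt
Abcc4, internal start, chr14:118676932-118677081, minus strand: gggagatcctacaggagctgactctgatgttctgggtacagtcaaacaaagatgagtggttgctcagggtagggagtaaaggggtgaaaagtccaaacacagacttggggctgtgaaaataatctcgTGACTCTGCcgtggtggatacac
Abcc2, chr19:43782158-43782307, plus strand: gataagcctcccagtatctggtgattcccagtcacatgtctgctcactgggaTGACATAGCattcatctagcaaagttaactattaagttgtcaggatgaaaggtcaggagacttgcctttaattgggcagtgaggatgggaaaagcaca
Ugdh, chr5:65435843-65435992, minus strand: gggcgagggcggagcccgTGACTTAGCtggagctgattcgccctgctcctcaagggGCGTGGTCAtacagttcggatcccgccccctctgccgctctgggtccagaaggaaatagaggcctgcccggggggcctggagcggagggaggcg
Txnrd1, chr10:82859056-82859205, plus strand: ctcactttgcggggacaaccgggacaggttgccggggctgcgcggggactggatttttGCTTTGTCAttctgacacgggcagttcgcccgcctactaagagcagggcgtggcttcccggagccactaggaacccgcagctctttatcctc
The core was searched for from 250 bases before to 50 after each start, and elements further away were not searched for. Abcc4 holds a match in both of its windows, at positions −25 to −17 from the distal start and −23 to −15 from the internal one. In Abcc2 the match lies at −98 to −90, and Ugdh has a pair, at −132 to −124 and at −94 to −86. Cbr3 holds no match in this window, and neither do Cbr1, Nqo1, Gsta2 and Gstm4. The stretches of these last genes are not shown, although their differences were larger than those of Abcc2 and Ugdh. Over all 27025 genes with such a window 14.0% hold the core, beside 10 of 31 textbook Nrf2 targets (32.3%) and 2 of 23 selenoproteins (8.70%). Letters that match describe the sequence and do not show a bound site.

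Cbr3, a carbonyl reductase that uses NADPH, had the largest rise of all probe sets. Its log2 level was 9.45, 9.06 and 9.62 in the Se-deficient livers and 6.48, 6.25 and 6.57 in the Se-adequate livers. No array of one group came near the other, and the livers at 0.05 μg Se/g, at 6.36, 6.54 and 6.71, lay with the Se-adequate ones. The difference of 2.94 (SE 0.15, adjusted p = 1.6e-05) is a 7.69-fold higher level. Cbr1, the neighbouring carbonyl reductase gene, lies on the same chromosome 16, 72.9 kb away with 0 protein-coding genes between them. Cbr1 measured 11, 10.64 and 10.91 against 10.17, 9.72 and 9.91, without overlap, a difference of 0.92 (SE 0.12, adjusted p = 0.057). It was not called, but it was with the replicate number as a block (adjusted p = 0.031). No label says what a shared replicate number marks.

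Abcc4, an efflux pump of the hepatocyte membrane that faces the blood, measured 9.50, 8.63 and 8.93 in Se deficiency and 7.54, 6.99 and 6.86 at 0.2 μg Se/g. The groups did not overlap although the Se-deficient livers were spread over almost 1 log2 unit. The difference was 1.89 (SE 0.22, adjusted p = 0.023), a 3.70-fold higher level. In 4 of 6 fits with 1 liver left out the call was lost (adjusted p from 0.067 to 0.23 without Se-deficient liver 1 or 3 or Se-adequate liver 2 or 3), and in the fit of only the 2 diets it was 0.23. Abcc2, the pump of the bile canaliculus, and Abcc3, another pump towards the blood, had differences of 0.46 (SE 0.12) and 0.37 (SE 0.11), without overlap and not called. Of the 10 Abcc transporters measured, 1 was called higher, where 0.0165% of all 18193 genes with 1 probe set each were. These 3 had an unadjusted p under 0.05 with a higher mean, where 2.06% of all genes did, and 0 had one with a lower mean, where 1.84% did.

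Hspb1, a small heat shock protein that keeps damaged proteins from clumping, was the third transcript to rise. Its levels were 9.40, 9.49 and 9.13 against 8.56, 8.38 and 8.28, and at 0.05 μg Se/g they were 8.35, 8.66 and 8.56. All 3 Se-deficient livers lay above the 6 others. The difference was 0.93 (SE 0.12, adjusted p = 0.040), and the second Hspb1 probe set had 1.30 (SE 0.21, adjusted p = 0.19). The call was lost in 4 of 6 fits with 1 liver left out (adjusted p from 0.21 to 0.33, without Se-deficient liver 1 or 2 or Se-adequate liver 2 or 3) with only the 2 diets fitted (0.20) and with quantile normalization (0.075). Among 21 heat shock and cold-inducible genes Hspb1 was the 1 with an unadjusted p under 0.05, while 17 means were higher and the median difference was 0.09. Of all 18193 genes, 2.06% had such a p with a higher mean, and 8177 means were higher. Hsp90aa1, a cytosolic chaperone, had a difference of 0.28 and Hspe1, a mitochondrial one, 0.14.

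**Figure D1:**
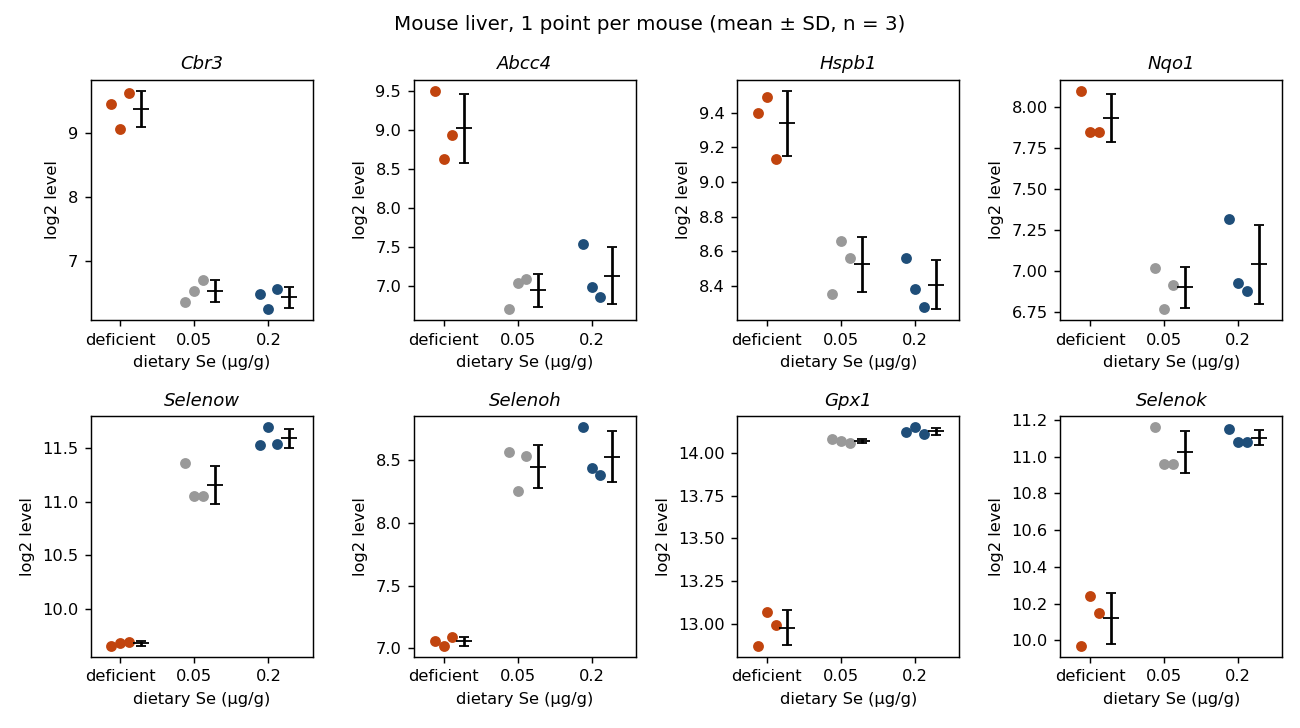
Log2 expression level (vertical axes, not starting at 0) of 8 transcripts in mouse liver by dietary Se (horizontal axes). Coloured points are single mice, 3 per diet, and the black bars give the mean and SD. Cbr3, Abcc4, Hspb1 and Nqo1 lay higher in all 3 Se-deficient livers than in the 6 others, and Selenow, Selenoh, Gpx1 and Selenok lay lower in all 3.

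Nqo1, a quinone reductase and a standard readout of Nrf2 activity, measured 8.10, 7.85 and 7.85 in the Se-deficient and 7.32, 6.93 and 6.88 in the Se-adequate livers. The groups were apart by over 0.5 log2 units, and the difference was 0.89 (SE 0.13, adjusted p = 0.072), which the fit with the replicate block called (adjusted p = 0.0053). Among alpha-class glutathione transferases, Gsta2 measured 11.69, 11.74 and 11.90 against 11.13, 10.72 and 10.63. Its difference was 0.95 (SE 0.13, adjusted p = 0.057), and that of Gsta4, which conjugates products of lipid peroxidation, was 0.80 (SE 0.13, adjusted p = 0.16). Gsta3 had 0.10 (SE 0.08). Without Se-adequate liver 1, limma called Nqo1 (adjusted p = 0.015), Gsta2 (0.0061) and Gsta4 (0.023), and Cbr1 as well (0.023). The transferase families have near-identical members, so a probe set may read more than 1 of them.

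Over all 38 textbook Nrf2 targets measured of 44 listed, 33 means were higher in Se deficiency. Of all 18193 genes with 1 probe set each, 8177 means were. The median difference of the targets was 0.33, beside −0.01 over all these genes. Cbr3 and Abcc4 were called, which is 2 of 38 where 0.0165% of genes were called higher. At an unadjusted p under 0.05 lay 25 with a higher mean and 1 with a lower one, where 2.06% and 1.84% of all genes did, and 22 had every Se-deficient liver above every Se-adequate one, where 3.25% did. The summed level of the 38 was 17.33 to 17.45 in the Se-deficient and 17.07 to 17.27 in the Se-adequate livers. The targets with a higher mean at an unadjusted p under 0.05 were 16 without Se-adequate liver 3, where 1.18% of all probe sets had one. Without each of the others they were 18 to 24, where 1.4% to 3.51% of all probe sets did. With the replicate block they were 25, where 4.57% of all probe sets did, beside 2.39% in the main fit. The list was chosen with earlier results of these data known, and the paper marks Cbr3, Abcc4, Cbr1, Nqo1 and Gsta4 as Nrf2 targets. Counts over the list therefore describe it and are not independent support.

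The targets are given here by what they do. In conjugation, the mu-class transferase Gstm4 had a difference of 0.60 (SE 0.10), Gstm2 0.46 (SE 0.13) and Gstm1 0.26 (SE 0.09), and the membrane transferase Mgst3 had 0.60 (SE 0.10) in its main probe set but −0.12 in the other. Mgst3 was called without Se-adequate liver 1 (adjusted p = 0.038). Ugdh, which makes the glucuronic acid donor, measured 12.39, 12.29 and 12.39 against 12.02, 11.87 and 11.91, a difference of 0.42 (SE 0.08), and the glucuronosyltransferase Ugt2b35 had 0.40 (SE 0.11). All of these lay apart between the groups, by these main probe sets, as 3.25% of all genes did on that side, and none was called in the fit of the 9 liver arrays. Mgst3 was called with array weights (adjusted p = 0.024) and Gstm4 with all 18 mouse arrays in one fit (0.043). Of 23 glutathione transferases, 8 had an unadjusted p under 0.05 with a higher mean, where 2.06% of all genes did, and 0 had one with a lower mean, where 1.84% did.

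In glutathione supply, Gclc, the catalytic subunit of the first step of synthesis, measured 13.31, 13.29 and 13.32 in Se deficiency and 13.15, 12.87 and 12.77 at 0.2 μg Se/g (difference 0.38, SE 0.10). The 3 Se-deficient values were almost equal and lay above the others. Gsr, which reduces glutathione disulfide, had 0.29 (SE 0.09), Srxn1, which repairs overoxidised peroxiredoxins, had 0.35 to 0.54 in 3 of its 4 probe sets and −0.08 in the fourth, and Gclm, the modifier subunit, had 0.17 with overlap. All 11 genes measured for the pentose phosphate pathway and NADPH supply had a higher mean, where 8177 of all 18193 genes did, with a median of 0.08. At an unadjusted p under 0.05 lay 2 of them, Pgd (0.35) and Tkt (0.23), where 2.06% of all genes did with a higher mean.

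Other textbook targets had small differences. Hmox1, which degrades heme, had a difference of 0.19 with overlap, Fth1, the ferritin heavy chain, had 0.05, Slc7a11, the cystine carrier, had −0.04 and Sqstm1 had 0.07. The level of Nfe2l2 itself was 9.67, 9.78 and 9.44 against 9.84, 9.53 and 9.52, a difference of 0.00 (SE 0.11). Among the 11 genes that make up or regulate Nrf2, 0 were called by limma and 0 had an unadjusted p under 0.05.

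**Figure D2:**
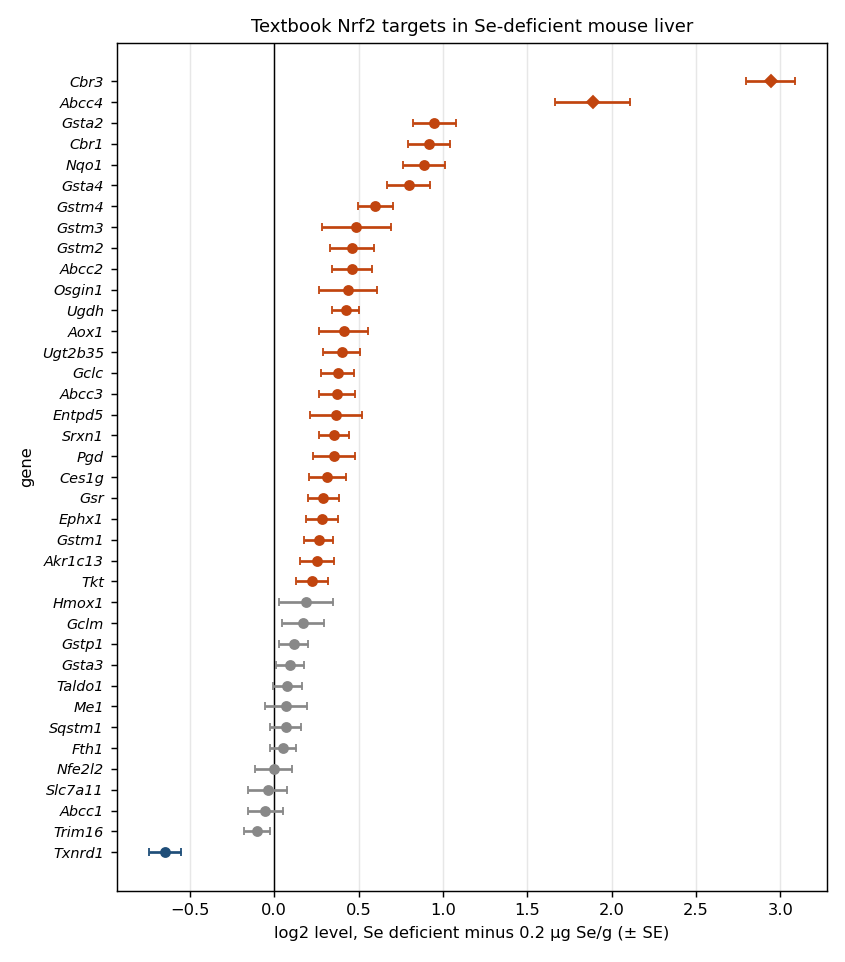
Difference in log2 level in mouse liver (Se-deficient minus Se-adequate on the horizontal axis, ± SE from limma, 3 mice per group) for the 38 textbook Nrf2 targets measured (vertical axis). Red and blue mark an unadjusted p under 0.05 with a higher or a lower mean, grey the rest, and diamonds mark adjusted p under 0.05. Differences ran from −0.65 for Txnrd1 to 2.94 for Cbr3, and 33 of 38 were above 0.

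Txnrd1, the cytosolic thioredoxin reductase, is both a selenoprotein and an Nrf2 target, and it was the 1 target with a lower mean at that p. It measured 9.68, 9.49 and 9.49 in the Se-deficient and 10.34, 10.19 and 10.08 in the Se-adequate livers, without overlap. The difference was −0.65 (SE 0.10, adjusted p = 0.098), and it was called with the replicate block (adjusted p = 0.013). Its other probe sets had −0.40 and −0.18. The RefSeq window of Txnrd1 shown above holds the antioxidant response core on the minus strand at −92 to −84 from that start.

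Of 24 selenoprotein genes listed, 23 were measured, and 19 of them had a lower mean in Se deficiency, where 10016 of all 18193 genes did. By the probe set with the highest mean, 4 were called lower, where 0.0220% of all genes were. At an unadjusted p under 0.05 lay 12, all with a lower mean, where 1.84% of all genes did. In 12 every Se-deficient liver lay below every Se-adequate one, where 3.86% of all genes did, and the median difference was −0.20. Their summed log2 level was 15.96 to 15.99 in the Se-deficient and 16.28 to 16.32 in the Se-adequate livers, without overlap. At an unadjusted p under 0.05, leaving out 1 liver gave 10 to 12 selenoproteins with a lower mean, where 1.15% to 3.8% of all probe sets had one. The replicate block gave 14, where 4.04% of all probe sets did, beside 2.24% in the main fit.

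Selenow, a small muscle-rich selenoprotein of the thioredoxin fold, fell the most. Its main probe set, the one with the highest mean, measured 9.66, 9.69 and 9.70 against 11.53, 11.69 and 11.54, a difference of −1.90 (SE 0.09, adjusted p = 1.6e-05) or a 3.73-fold lower level. The second probe set fell by 1.55 (SE 0.16, adjusted p = 0.0089), a call lost without any 1 of the Se-deficient livers or without Se-adequate liver 2 (adjusted p from 0.060 to 0.10). The livers at 0.05 μg Se/g, at 11.36, 11.05 and 11.05 in the main probe set, lay below every Se-adequate liver and far above the Se-deficient ones.

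Selenoh, a nuclear selenoprotein, measured 7.06, 7.02 and 7.09 in Se deficiency against 8.76, 8.44 and 8.38. It fell by 1.47 (SE 0.12, adjusted p = 0.00087), a 2.77-fold lower level. Gpx1, the main cytosolic glutathione peroxidase, measured 12.87, 13.07 and 12.99 against 14.12, 14.15 and 14.11. It fell by 1.15 (SE 0.07, adjusted p = 0.00013), a 2.21-fold lower level. The 3 Se-adequate values of Gpx1 lay within 0.04 of each other.

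Selenok, a selenoprotein of the endoplasmic reticulum membrane, fell in both of its probe sets. The main one measured 9.97, 10.24 and 10.15 against 11.15, 11.08 and 11.08, a difference of −0.98 (SE 0.09, adjusted p = 0.0031), and the other had −1.12 (SE 0.09, adjusted p = 0.0012). Txnrd2, the mitochondrial thioredoxin reductase, was called lower in 1 of its 4 probe sets, which went from 7.66, 7.72 and 7.67 to 7.04, 6.91 and 6.98, a difference of −0.71 (SE 0.07, adjusted p = 0.0090). That call was lost without Se-deficient liver 2 or 3 or Se-adequate liver 2 or 3 (adjusted p from 0.069 to 0.11). The main probe set had almost the same difference, −0.70 (SE 0.10), with an adjusted p of 0.057, and the others had −0.23 without overlap and 0.01 with overlap.

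The other selenoproteins had smaller differences. Txnrd3, the testis-rich reductase, had a difference of −0.62 (SE 0.15), Dio1, the deiodinase that activates thyroid hormone in liver, had −0.54 (SE 0.14) and Selenom had −0.40 (SE 0.07), each without overlap and not called. Selenop, the Se carrier that liver secretes, measured 14.24, 14.18 and 14.11 against 14.32, 14.31 and 14.37, a difference of −0.16 (SE 0.07). Gpx4, which protects membrane lipids, had 0.10 (SE 0.08), and Sephs2, which makes the Se donor for selenocysteine and is itself a selenoprotein, had 0.13 in its main probe set, with every Se-deficient liver above, but −0.52 in another of its 3 probe sets. The other members lay between −0.24 and 0.07. Among 8 genes of selenocysteine synthesis and insertion, 0 were called and Secisbp2l (0.42, SE 0.15) alone had an unadjusted p under 0.05. With a higher mean, 2.06% of all genes had one.

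**Figure D3:**
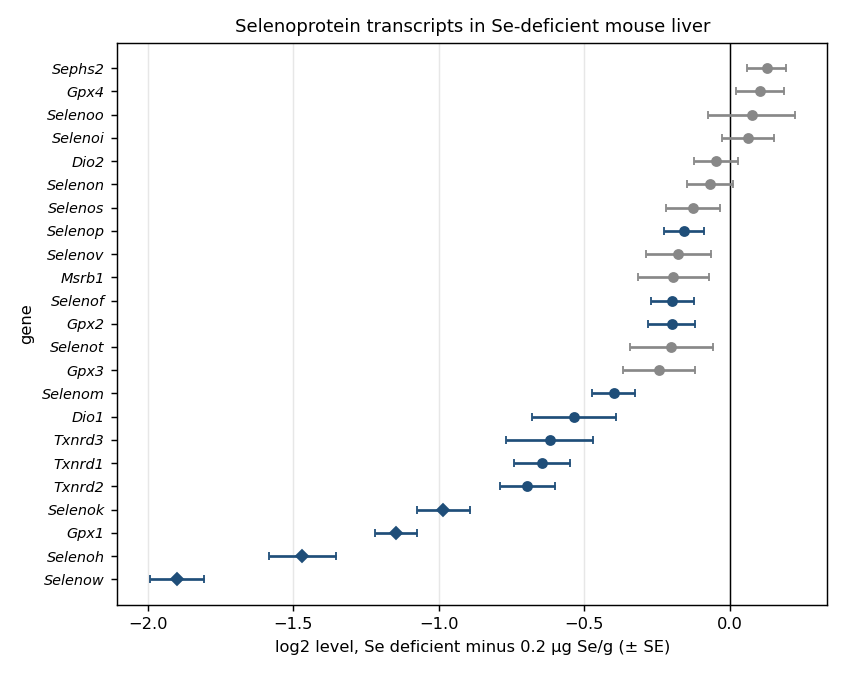
Difference in log2 level in mouse liver (Se-deficient minus Se-adequate on the horizontal axis, ± SE from limma, 3 mice per group) for the 23 selenoproteins measured (vertical axis), by the probe set with the highest mean. Blue marks an unadjusted p under 0.05 with a lower mean, grey the rest, and diamonds mark adjusted p under 0.05. Differences ran from −1.90 for Selenow to 0.13 for Sephs2, and the 4 diamonds are Selenow, Selenoh, Gpx1 and Selenok.

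Outside these groups few transcripts stood out. Cyp2c55, a drug-metabolising cytochrome P450, measured 10.32, 10.52 and 10.77 in Se deficiency and 11.51, 11.13 and 11.31 at 0.2 μg Se/g, a difference of −0.78 (SE 0.12, adjusted p = 0.16). Of 26 drug-metabolising P450 genes, 2 had an unadjusted p under 0.05, both with a lower mean, where 1.84% of all genes did. The other was Cyp2b10 at −0.80 (SE 0.27) with overlap, which the fit with the replicate block called (adjusted p = 0.050). Ppp1r3c, which targets a phosphatase to glycogen, measured 11.38, 11.48 and 11.28 against 10.80, 10.55 and 10.11, a difference of 0.89 (SE 0.16, adjusted p = 0.29), and its second probe set had 0.93. Both of these genes lay apart between the groups and were not called. Blvrb, a biliverdin reductase, had 0.57 (SE 0.10), and the metallothionein Mt1 had 0.82 (SE 0.34), each without overlap, although the second Mt1 probe set had 0.15. Blvrb was called by limma with array weights (adjusted p = 0.02). Sdc4, a cell surface proteoglycan, had 0.83 (SE 0.28) in 1 probe set and −0.21 in the other.

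Genes of bile acid synthesis had differences of both signs. Cyp7a1, its rate-limiting enzyme, measured 9.12, 8.97 and 8.05 against 9.89, 9.53 and 9.51 (difference −0.93, SE 0.29), and Cyp7b1, of the alternative route, measured 11.02, 10.45 and 10.77 against 10.26, 10.21 and 10.06 (0.57, SE 0.16). These probe sets lay on opposite sides without overlap, while the second Cyp7a1 probe set had −0.82 with overlap. In all, 0 of the 32 bile acid genes were called by limma. At an unadjusted p under 0.05 lay 3 higher and 2 lower, where 2.06% and 1.84% of all genes did. In cholesterol synthesis 17 of 19 means were lower, where 10016 of all 18193 genes were, with a median of −0.12. Only Idi1 (−0.30) and Fdft1 (−0.24) had an unadjusted p under 0.05 there, where 1.84% of all genes did with a lower mean.

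Several large differences rested on 1 or 2 Se-adequate livers. Phlda1 measured 9.02, 8.77 and 8.52 in Se deficiency and 9.26, 10.92 and 11.20 at 0.2 μg Se/g (difference −1.69, SE 0.44). Alas1, the first enzyme of heme synthesis, measured 10.91, 11.01 and 10.81 against 11.02, 12.27 and 12.03, a difference of −0.87 (SE 0.27). In both genes Se-adequate liver 1 lay next to the Se-deficient ones, as did all livers at 0.05 μg Se/g, which were 9.52, 8.45 and 9.47 for Phlda1 and 11.16, 10.89 and 10.53 for Alas1. Without Se-adequate liver 1, limma called both (adjusted p = 0.032 and 0.042), and the count of calls went from 10 to 21. Onecut1, a hepatocyte transcription factor, had −0.92 (SE 0.32) and Slc25a30, a mitochondrial carrier, had −0.74 (SE 0.26), with liver 1 again the lowest of the Se-adequate group. Onecut1 measured 8.26, 8.03 and 8.54 against 8.58, 10.06 and 8.94, so its difference came mostly from Se-adequate liver 2.

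**Figure D4:**
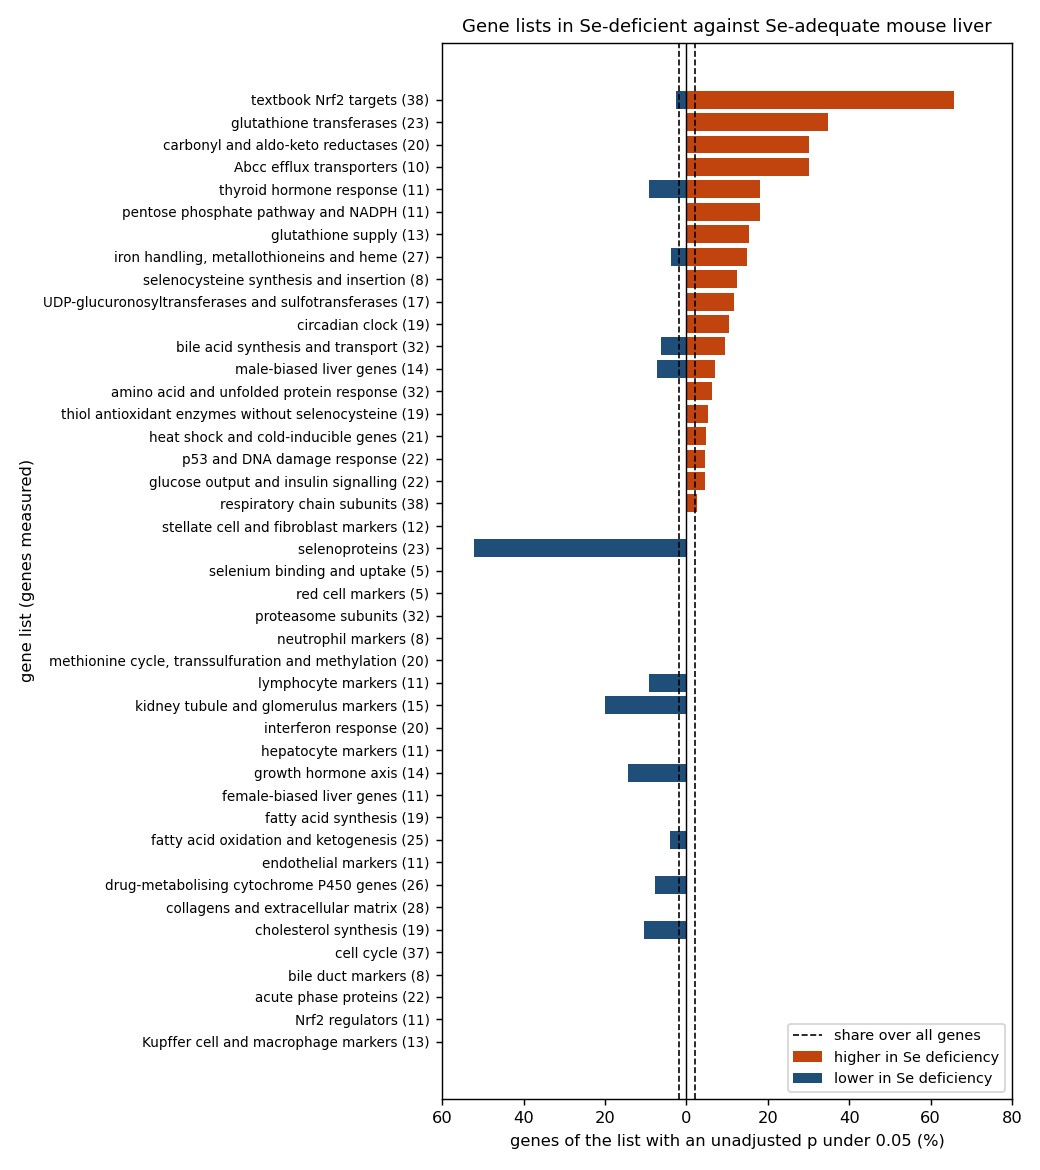
Share of the genes of each of 43 lists (vertical axis, number of genes measured in parentheses) with an unadjusted p under 0.05 in the comparison of the 2 diets (horizontal axis, in percent). Red bars to the right count genes with a higher mean in Se deficiency, blue bars to the left genes with a lower one, and dashed lines give the shares over all genes, 2.06% higher and 1.84% lower. Lists share genes, and bars of short lists rest on 1 or 2 genes. The longest bars are the textbook Nrf2 targets (25 of 38 higher) and the selenoproteins (12 of 23 lower).

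Lists of other cell types held no called gene. Of 13 Kupffer cell and macrophage markers 12 had a higher mean, where 8177 of all 18193 genes did. Among these markers 0 had an unadjusted p under 0.05 by limma. Their summed level overlapped, at 12.74 to 14.14 in the Se-deficient and 12.79 to 13.49 in the Se-adequate livers, with Se-deficient liver 2 the highest for Lyz2 (9.67), Adgre1 (9.34) and Csf1r (11.42). Endothelial (11), stellate (12), bile duct (8), neutrophil (8) and red cell (5) markers had 0 genes with an unadjusted p under 0.05, and lymphocyte markers had 1 of 11, Gzma at −0.29. Kidney tubule and glomerulus markers, which liver should lack, had 3 of 15 with a lower mean at that p, where 1.84% of all genes did. Of these markers 12 had a lower mean, with a median of −0.10, and the source of this lean was not tested. The summed levels of neutrophil markers (9.71 to 10.10 against 10.09 to 10.17) and red cell markers (10.59 to 10.73 against 10.71 to 11.04) overlapped between the groups at their edges, and their part in the results was not tested. Collagen and matrix genes had 25 of 28 lower means with a median of −0.08, and proteasome subunits 26 of 32 higher means with a median of 0.05, with 0 genes at that p in either. Over all 18193 genes 10016 means were lower and 8177 higher.

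Kidneys of mice on the same diets were set beside liver, and the difference between the responses was tested over all 18 mouse arrays, each tissue having been normalized on its own. Cbr3 differed. In kidney it measured 6.62 in Se deficiency and 6.40 in the Se-adequate group (means of 3), a difference of 0.21 (SE 0.14). The liver response exceeded that of kidney by 2.73 (SE 0.22, adjusted p = 1.5e-05), and this was the 1 probe set called (0.00222% of those tested). Abcc4 had 0.92 (SE 0.12) in kidney and Nqo1 0.71 (SE 0.10), so that both tissues had higher means. Neither was called in the limma fit of the kidney arrays (adjusted p = 0.11 and 0.29). Cbr1 had 0.03 (SE 0.14), Gsta4 −0.15 (SE 0.11) and Hspb1 −0.27 (SE 0.18) in kidney, and none of these 3 was called in the test of the difference between tissues (adjusted p = 0.83, 0.35 and 0.35).

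The selenoproteins called lower in liver also had lower means in kidney. Selenoh, Gpx1 and the main Selenow probe set were called in the limma fit of the kidney arrays (adjusted p = 0.00041, 0.0039 and 0.0043), and Selenok and Txnrd2 were not. Gpx2, lower in liver at an unadjusted p under 0.05, had 0.01 in kidney. Selenoh had −1.47 in liver and −1.44 in kidney, Gpx1 −1.15 and −1.26, and the main Selenow probe set −1.90 and −1.44. Selenok had −0.98 in liver and −0.24 (SE 0.08) in kidney, and the second Selenow probe set −1.55 and −0.34 (SE 0.12), but the difference between tissues was not called for either (adjusted p = 0.25 and 0.30). With array weights in the fit, Selenok, Selenow, Gsta3 and Gsta4 were called as different beside Cbr3. The median of the textbook Nrf2 targets was 0.15 in kidney and 0.33 in liver.

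**Figure D5:**
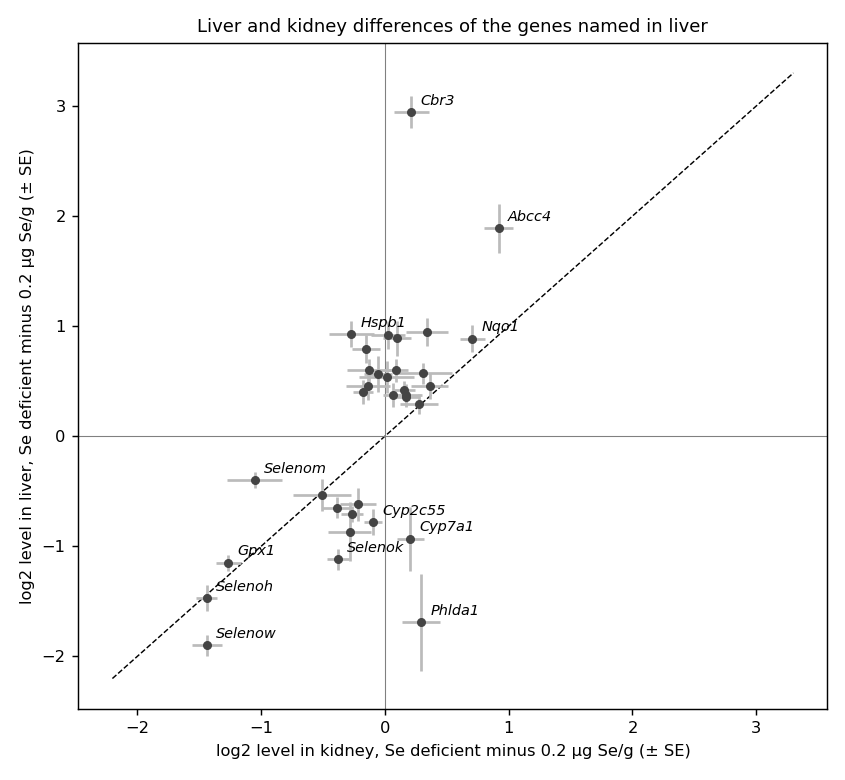
Difference in log2 level (Se-deficient minus Se-adequate) in liver (vertical axis) against the same difference in kidney (horizontal axis), ± SE from limma, 3 arrays per group and tissue. Shown are the 34 genes of the naming rule and the gene lists with an unadjusted p under 0.01 in liver, 1 point each, and the dashed line marks equal differences. Cbr3 lies far above the line, at 2.94 in liver and 0.21 in kidney, while Selenoh and Gpx1 lie close to it.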

How the data were processed

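Livers of 3 Se-deficient and 3 Se-adequate mice were compared, with 3 at 0.05 μg Se/g in the same fit. The deposited values are log2 expression levels that the authors made from the array scans, with GCRMA per the submitters' processing notes (no version given there), while the study's methods name RMA, run for each tissue separately. The 2 methods treat low signals differently, so differences of weak transcripts depend on which was used. The values were used as deposited, and 0 sample columns were left unused. Array controls (64 probe sets) were not tested.

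Differences were fitted in R 4.3.3 with limma 3.58.1 (lmFit with 1 coefficient per diet over the 9 liver arrays, eBayes defaults), with the Benjamini-Hochberg adjustment over 45037 probe sets and a threshold of 0.05. Tissues were compared in one fit of 18 mouse arrays that took them as independent, although liver and kidney came from the same mice. Symbols come from the platform annotation (34945 probe sets with 1 symbol, 932 with several, 9160 with none). A gene is given by its probe set with the highest mean over the 9 arrays. Figures used Python 3.11.15 with matplotlib 3.10.9.

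Named are genes with an adjusted p under 0.2, all selenoproteins, members of the Nrf2 target, glutathione transferase, Abcc and reductase lists with an unadjusted p under 0.01, up to 4 members of other lists by p, and the 10 largest rises and falls without overlap. Textbook targets and other genes beyond these, and genes named for being at or near no difference, were picked after their values were seen. The members and the 43 gene lists were chosen with earlier results of these data known. Lists are described by counts and medians, without a test.

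Between the 2 groups, the residuals of equally numbered arrays correlated with r of 0.462, 0.105 and 0.319 (numbers 1, 2 and 3), all over the limit of 0.1, so the blocked fit is given where it changes a call. For number 2 another array was more alike (0.265). Neither the labels nor the study's methods say what a shared number marks, so calls of the blocked fit stand only as an alternative to the main fit. Alternatives were the arrays in the fit, the prior of the spread, array weights, a filter on low signal, quantile normalization, the block and each array left out. The fits were tested on simulated data. Precision is limited by how few arrays there are, and the p-values measure the spread between mice. Of 49 named genes, 43 had a RefSeq promoter window. Enzyme activities and qRT-PCR values were not analysed here.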

Additional observations from a re-analysis of the deposited data

Results flagged for a closer look

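The response of Cbr3 to Se deficiency differed between tissues by the test of the difference itself. It was 2.73 log2 units larger in liver than in kidney (SE 0.22, limma adjusted p = 1.5e-05), and the 3 Se-deficient livers lay above all 3 Se-adequate ones while kidney had a mean difference of 0.21. Over the alternatives run, the value stayed between 2.61 and 2.89.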

How the results depend on the processing

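The sign of the difference was the same under each of the 13 alternatives that held it for 88 of 89 probe sets tried, those of the naming rule and of list members with an unadjusted p under 0.05. The exception was Selenoo (0.07), at −0.032 with array weights and at −0.041 to 0.203 with 1 liver left out, below 0 without Se-deficient liver 1 or Se-adequate liver 3. Cbr3, Selenow, Selenoh, Gpx1 and Selenok were called in every one, and Abcc4, Hspb1, Txnrd2 and the second Selenow probe set were not. The 10 calls (3 higher, 7 lower) became 22 (12 higher) with all 18 mouse arrays in one fit and 22 (13 higher) with array weights. Calls of higher probe sets were 7 with trend and robust, 5 with probe sets below the median left out, and 1 with only the 2 groups fitted. Blocking on the replicate number gave 16 calls, 6 of them higher, with Cbr1, Nqo1, Txnrd1 and Cyp2b10 added, and it changed no other call that the text gives. Leaving out 1 liver gave 6 to 21 calls, 1 to 10 higher and 5 to 11 lower, with 21 without Se-adequate liver 1 and 6 without Se-adequate liver 2. Probe sets beyond 2-fold numbered 18, and 23 to 40 with 1 liver left out. Those without overlap numbered 3427, 1783 with the low probe sets left out, and 5660 to 10439 with 1 liver left out, where fewer arrays make separation easier. The difference between liver and kidney gave 1 call as reported, 5 with array weights, and 1 to 2 with 1 array left out. The cause of these shifts was not tested. With 3 mice a group and signals near background, small differences of weak transcripts could go uncalled.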

Other observations

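Some gene lists outside antioxidant defence held single members with differences between Se-deficient and Se-adequate livers, none of them called. In the circadian list of 19 genes, Nfil3, a repressor of the clock output, had a difference of 0.54 (SE 0.15) without overlap and Cry1 had 0.42 (SE 0.15) with overlap. In the growth hormone axis, Cish, a feedback inhibitor of its receptor, measured 7.80, 7.46 and 7.76 in the Se-deficient and 7.66, 9.05 and 8.58 in the Se-adequate livers, with Se-adequate liver 1 again next to the Se-deficient ones. Without that liver Cish was called. Hsd3b5, a male-biased steroid enzyme, measured 8.76, 7.14 and 9.93 against 9.75, 10.46 and 9.90, a difference of −1.43 (SE 0.62) with overlap that came mostly from Se-deficient liver 2. Serpina7, which carries thyroid hormone in blood, had 0.71 (SE 0.28) with overlap.

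Where 10016 of all 18193 genes had a lower mean and 8177 a higher one, other lists leaned to 1 side. Interferon response genes had 17 of 20 lower means with a median of −0.15, acute phase proteins had 19 of 22 higher means with a median of 0.07, and in both 0 genes had an unadjusted p under 0.05 by limma. Of 32 genes of the amino acid and unfolded protein response, 2 did, Dnajc3 (0.21) and Sesn2 (0.17), where 2.06% of all genes did with a higher mean. The respiratory chain list had 1 of 38, Uqcrc2 at 0.24, and the cell cycle list had 0 of 37.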
